A study of Mus musculus with 8 samples.

Results

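The autosomal Gm gene models of a mouse germ cell RNA-seq table were examined. They are the models on chromosomes 1 to 19 whose symbol is the letters Gm followed only by digits, and that reached at least 10 normalized counts in at least 4 of 8 libraries. The rule found 768 models under 764 symbols, out of 1513 autosomal Gm models and 56324 models in the whole table. The members were thus chosen by their normalized counts in these same libraries, and a model could enter through one cell type alone, and 89 models reached 10 in every spermatid library and in no spermatocyte library. A further 16 did so in every spermatocyte library and in no spermatid library, 479 reached 10 in all 8 libraries, and 184 had some other pattern. The models just inside the rule were Gm12575, Gm9926 and Gm5244, each with a fourth-highest value of 10.1, and those just outside were Gm5532, Gm20149 and Gm2237, each at 9.85.

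The study, titled for the part of Sam68 in 3'-end processing of pre-mRNA, sequenced polyadenylated RNA of male germ cells. All 8 libraries used here carry the same genotype, Sam68 -/-, in C57BL/6 mice, and came from males 12 weeks of age. The 4 spermatocyte libraries and 4 spermatid libraries were made from cells separated by gravity sedimentation (Sta-put), so a fraction can hold cells of neighbouring stages or other testis cells. The comparison is therefore between 2 stages within the knockout, spermatids against spermatocytes, and no value below compares genotypes.

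A Gm symbol is a placeholder given to a mouse gene predicted by annotation and not yet named for a function, and it covers protein-coding genes, long non-coding RNAs and pseudogenes alike. Spermatocytes are the cells in meiosis, and spermatids are their haploid products, which build the acrosome and flagellum and compact the nucleus. The testis is known for transcribing many non-coding RNAs and recently duplicated genes. Sam68 is an RNA-binding protein of the STAR family, encoded by Khdrbs1, that acts on splicing and other RNA processing.

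The promoters below are shown because their members had some of the largest differences between stages and because the number of CG pairs varied with the direction of the call. Each is the RefSeq window from 250 bases before to 50 bases after the gene start, on build GRCm38.p6, written 5′ to 3′ on the gene's strand, with every CG pair in capitals. The first 3 belong to a tandem run of near-identical coding genes on chromosome 5 that were all called higher in spermatids: Gm3402 at chr5:146513873-146514172, Gm3404 at chr5:146525551-146525850 and Gm3409 at chr5:146537398-146537697, all on the plus strand. They hold 2, 0 and 0 CG pairs.
Gm3402: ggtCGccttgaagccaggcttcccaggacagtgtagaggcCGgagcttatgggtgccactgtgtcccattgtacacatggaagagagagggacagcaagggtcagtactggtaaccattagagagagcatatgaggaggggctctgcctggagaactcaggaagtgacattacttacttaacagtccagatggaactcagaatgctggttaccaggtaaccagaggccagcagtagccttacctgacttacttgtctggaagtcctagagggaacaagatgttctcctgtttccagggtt
Gm3404: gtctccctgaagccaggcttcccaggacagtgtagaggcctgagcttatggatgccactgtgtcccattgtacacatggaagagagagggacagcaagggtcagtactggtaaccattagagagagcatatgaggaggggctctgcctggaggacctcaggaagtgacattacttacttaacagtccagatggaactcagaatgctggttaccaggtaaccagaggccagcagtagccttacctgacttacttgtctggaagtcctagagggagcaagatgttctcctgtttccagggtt
Gm3409: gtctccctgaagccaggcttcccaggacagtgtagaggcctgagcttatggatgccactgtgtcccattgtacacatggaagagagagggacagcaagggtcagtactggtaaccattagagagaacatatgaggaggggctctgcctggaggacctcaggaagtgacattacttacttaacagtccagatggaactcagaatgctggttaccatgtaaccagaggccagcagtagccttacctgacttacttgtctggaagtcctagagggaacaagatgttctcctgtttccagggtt

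Gm20268, a non-coding RNA (chr1:101155518-101155817, plus strand), and Gm5901, a coding gene (chr7:105374788-105375087, plus strand), stand for single members called higher. They hold 1 and 2 CG pairs.
Gm20268: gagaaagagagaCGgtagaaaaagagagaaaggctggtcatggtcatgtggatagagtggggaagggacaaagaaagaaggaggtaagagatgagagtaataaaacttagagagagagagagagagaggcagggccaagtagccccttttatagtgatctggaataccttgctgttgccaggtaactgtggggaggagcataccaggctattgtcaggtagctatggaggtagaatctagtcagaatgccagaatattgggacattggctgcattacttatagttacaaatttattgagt
Gm5901: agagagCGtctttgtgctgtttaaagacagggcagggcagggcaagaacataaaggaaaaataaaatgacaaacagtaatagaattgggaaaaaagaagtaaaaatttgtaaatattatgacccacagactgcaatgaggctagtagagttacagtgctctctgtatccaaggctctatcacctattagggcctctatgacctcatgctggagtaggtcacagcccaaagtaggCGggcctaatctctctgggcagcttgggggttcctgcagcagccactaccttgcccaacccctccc

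Gm9936 (chr5:114859378-114859677, minus strand), Gm15545 (chr7:44986650-44986949, plus strand) and Gm20324 (chr15:82898830-82899129, plus strand) are non-coding RNAs called lower in spermatids. Their windows hold 18, 14 and 27 CG pairs, more than those of other large falls: Gm21269 has 3, Gm6639 has 1 and Gm4763 has 4, and the median over members called lower is 7.
Gm9936: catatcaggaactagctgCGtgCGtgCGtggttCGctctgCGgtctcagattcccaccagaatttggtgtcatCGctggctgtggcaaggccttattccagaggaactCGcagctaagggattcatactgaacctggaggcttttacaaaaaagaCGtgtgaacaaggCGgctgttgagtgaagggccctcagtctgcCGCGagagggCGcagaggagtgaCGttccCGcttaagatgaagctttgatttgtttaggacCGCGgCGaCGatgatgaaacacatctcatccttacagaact
Gm15545: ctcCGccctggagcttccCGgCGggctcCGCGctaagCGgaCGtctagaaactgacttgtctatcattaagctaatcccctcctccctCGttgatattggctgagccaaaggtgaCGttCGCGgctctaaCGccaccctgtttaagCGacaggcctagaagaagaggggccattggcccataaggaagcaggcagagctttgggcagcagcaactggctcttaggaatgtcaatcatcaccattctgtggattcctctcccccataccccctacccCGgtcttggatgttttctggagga
Gm20324: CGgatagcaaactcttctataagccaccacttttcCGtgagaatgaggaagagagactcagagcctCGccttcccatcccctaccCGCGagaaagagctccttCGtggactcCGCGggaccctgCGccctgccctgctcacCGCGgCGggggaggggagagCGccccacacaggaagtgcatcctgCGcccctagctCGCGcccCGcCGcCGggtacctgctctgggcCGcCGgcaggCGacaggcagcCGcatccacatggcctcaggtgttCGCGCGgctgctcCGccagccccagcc

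The deposited values, here called normalized counts, are reads counted on each gene model after scaling by the size factor of its library. The libraries held 49000266 to 93975960 reads, so that 3 reads, taken as the floor of detection, were worth 2.42 to 4.50 normalized counts. Whether the 4 libraries of a group represent 4 different animals is not in the labels, and every p-value below rests on a spread among libraries that may be technical. Members took 1.51% to 1.67% of normalized counts in the spermatocyte libraries and 1.71% to 1.82% in the spermatid libraries. Khdrbs1 itself was read in every library, at 3808, 3421, 4319 and 4984 normalized counts in spermatocytes and 651, 625, 854 and 1129 in spermatids. The values are per gene and not per exon, so they do not check the deletion.

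The marker lists bear on every result below. All 10 spermatid markers were called higher in spermatids, and 0 of 10 spermatocyte markers were called higher there and 3 lower. All 10 Sertoli cell markers were called lower in spermatids, and spermatocyte library 3 carried the most. Their mean log2 level was 8.89, 9.48, 11.10 and 9.86 over the spermatocyte libraries in order, against 5.67 to 6.91 in spermatids. All 5 Leydig cell markers tested were also called lower. Of 7 macrophage and blood cell markers tested, 6 were called higher in spermatids, with mean log2 levels of 3.67 to 3.99 in spermatocytes and 6.14 to 7.55 in spermatids. Spermatogonia (3 of 8), peritubular myoid cells (4 of 5) and endothelial cells (3 of 5) also had markers called higher, and 1 endothelial marker was called lower. The part of all these cells in the members' differences was not tested. In bulk samples, fewer cells of a type and less RNA per cell cannot be told apart.

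A model was called when limma's adjusted p was below 0.05 and its log2 fold change, spermatids minus spermatocytes on log2(normalized count + 1), was at least 1 in size. The background over all 28735 tested models was 62.3% called, made up of 32.5% higher and 29.8% lower, with a median log2 fold change of -0.011. Of the 768 members, 347 were called higher (45.2%), 163 lower (21.2%) and 258 neither, with a median of 0.79. The share called in either direction, 66.4%, was close to that over all models. The share called higher lay above the 32.5% over all models and the share called lower below the 29.8%. All models include 10078 autosomal models without symbol, of which 46.0% were called lower. Of 17000 autosomal models with another symbol, 33.7% were called higher and 21.5% lower, the latter close to the share of the members. Since the rule used these values, the counts describe the members and support nothing. All 89 members that entered through spermatids alone were called higher, and all 16 that entered through spermatocytes alone were called lower. Among the 479 members that reached 10 in all 8 libraries, 167 were called higher and 115 lower, and their median was 0.088. The libraries of both groups did not overlap for 520 members, with spermatids above for 349, beside 66.4% of all models tested.

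RefSeq knew 602 members, as 208 protein-coding genes, 310 non-coding RNAs and 84 pseudogenes, and 166 members had no RefSeq match. Protein-coding members were called higher in 104 cases and lower in 30, with a median of 1.08. Non-coding RNAs split less unevenly, with 139 higher, 83 lower and a median of 0.41. Pseudogenes were called higher in 37 cases and lower in 7, and unmatched models in 67 and 43. Of the other 15149 autosomal protein-coding genes with a symbol, 4920 were called higher and 3283 lower, and of 1194 other non-coding RNAs 567 and 236. Of 118 other pseudogenes 40 were called higher and 33 lower, a more even split than among the members. The members were spread over all 19 autosomes, and chromosome 14 had 29 called higher and 5 lower of 46, whereas chromosome 13 had 10 and 11 of 30. These chromosomes were picked as the extremes, with 85.3% and 47.6% higher among called members. Matched transcripts of chromosome 14 members shared a median of 78.9% of short sequence windows with other genes. Of the 29, 7 and 4 lie in the runs described below, so the 29 are not all separate measurements. All models of these chromosomes were not counted, so a difference between chromosomes was not tested.

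**Figure D1:**
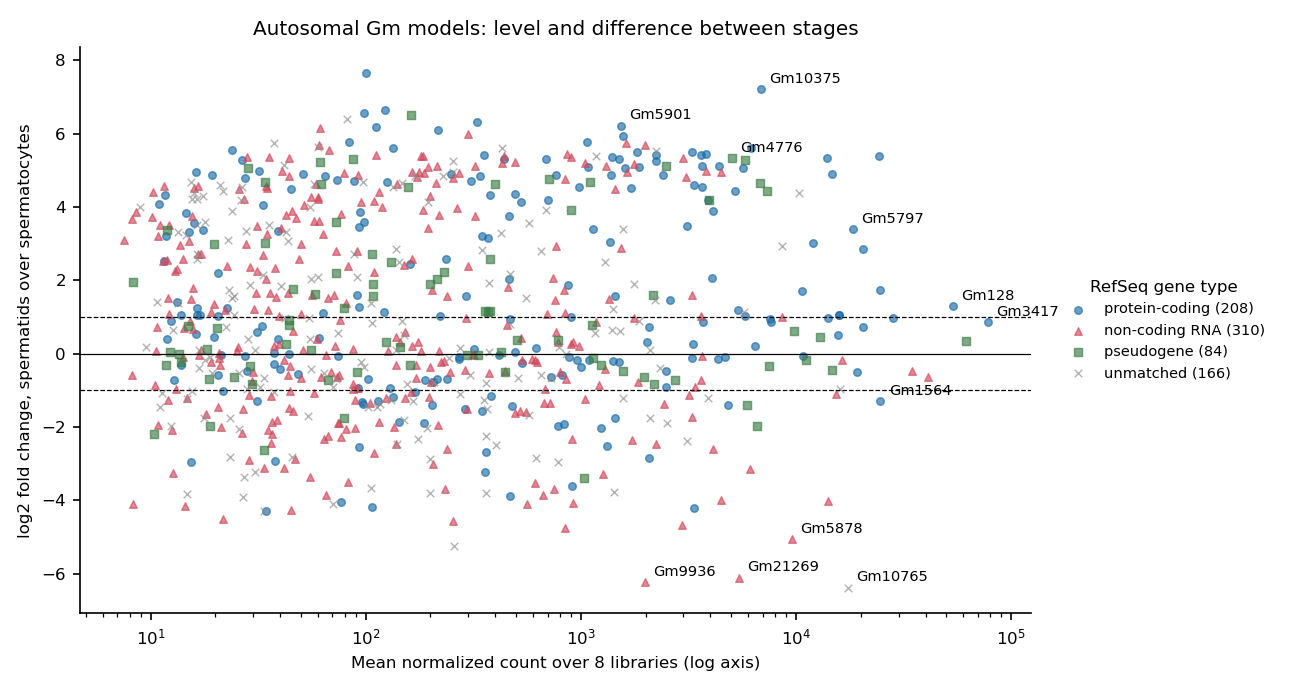
Each point is 1 of the 768 members, with its mean normalized count over the 8 libraries on a log axis against its log2 fold change, spermatids over spermatocytes, and the symbol giving its RefSeq gene type; dashed lines mark a log2 fold change of 1 in either direction. Rises of 4 or more among called members numbered 166 and falls of 4 or more numbered 21, and the 8 members with the highest mean lie between -1.29 and 1.73.

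The median member had a mean of 138 normalized counts over the 8 libraries. The mean over the 8 libraries was at least 100 normalized counts for 421 members, at least 1000 for 167 and at least 10000 for 31. The 8 members read most held 25.4% to 34.6% of all member counts in a library. Among the members, 73 were called with a rise of 5 or more on the log2 scale and 5 with a fall as large. The rule bears on this: 89 members entered through spermatids alone, with a median log2 fold change of 4.21. Only 16 entered through spermatocytes alone, with a median of -3.59. How many of all models rose or fell as far was not counted.

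Gm10375, a protein-coding gene at chr14:43602627-43608013 on the minus strand, had the largest rise among members averaging 500 normalized counts or more in spermatids. Spermatocyte libraries 1 to 4 gave 196, 261, 104 and 11.4 normalized counts, and the spermatid libraries gave 11148, 16498, 14886 and 11971. The log2 fold change was 7.22 (SE 0.78, adjusted p = 9.1e-06). Spermatocyte library 4 stood lowest, and without it the log2 fold change was 6.26. A correction of each library for GC content, chosen after seeing the data, gave 6.12. Of its 50-base transcript windows, 88.2% occur in transcripts of other genes, so how reads were divided among the copies is uncertain.

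Gm5901, a coding gene at chr7:105375098-105378287 on the plus strand, had no such shared windows. It was read at 33.0, 32.4, 48.1 and 44.5 in spermatocytes and at 2223, 2560, 3555 and 3824 in spermatids, so every spermatid library stood far above every spermatocyte library. It rose by 6.22 on the log2 scale (SE 0.25, adjusted p = 1.5e-09). It overlaps Fam160a2, which was not called (0.21).

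Gm4251, a non-coding RNA at chr14:71251273-71271059 on the plus strand, went from 4.84, 16.7, 17.9 and 2.28 to 332, 690, 685 and 653. Spermatid library 1 was the lowest of its group, and the groups did not overlap. The log2 fold change was 5.99 (SE 0.54, adjusted p = 8.4e-07), with spermatocyte library 4 under the floor of 3 reads, and 4.53 after the GC correction.

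Gm20268, whose promoter is printed above, was read at 45.1, 88.3, 63.7 and 42.2 in spermatocytes and at 2421, 3402, 3147 and 3738 in spermatids. It rose by 5.75 (SE 0.27, adjusted p = 3.6e-09), and by 4.13 after the GC correction. Gm19395, a non-coding RNA at chr10:53280270-53283687 on the plus strand, was read at 127, 94.2, 108 and 22.8 in spermatocytes and at 3643, 3493, 4224 and 4173 in spermatids, a rise of 5.69 (SE 0.44), and of 5.03 after the correction. Gm19395 lies within the span of Cep85l, which also rose (3.80). Gm3667, in the chromosome 14 run described below, completes the 8 largest rises together with Gm3402 and Gm3409.

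The largest falls were mainly of non-coding RNAs. Gm10765, at chr2:127701945-127703711 and without a RefSeq match, was read at 28340, 30077, 43901 and 35255 in spermatocytes and at 381, 584, 345 and 356 in spermatids. It fell by 6.38 on the log2 scale (SE 0.21, adjusted p = 9.5e-10), the largest fall by this rule. Spermatid library 2 stood above the other 3, and the groups stayed far apart.

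Gm9936 (chr5:114855025-114859384, minus strand) was read at 3858, 3092, 4114 and 4590 in spermatocytes and at 55.5, 61.7, 61.5 and 31.6 in spermatids, a fall of 6.22 (SE 0.26, adjusted p = 1.6e-09). Gm21269 (chr7:73825919-73836563, plus strand) went from 8708, 9071, 10851 and 14355 to 142, 199, 144 and 132. It fell by 6.10 (SE 0.21, adjusted p = 9.5e-10). In both, every spermatocyte library stood far above every spermatid library.

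Gm5878 (chr6:85111416-85126095, minus strand) had the tightest spermatocyte values of the 8, at 19455, 18485, 18303 and 18032. In spermatids it was read at 459, 871, 489 and 500, again highest in library 2, and it fell by 5.05 (SE 0.21, adjusted p = 1.6e-09). Gm15545, at chr7:44986900-44994601 on the plus strand, went from 1710, 1334, 1356 and 2134 to 68.1, 67.3, 49.5 and 52.2, a fall of 4.75 (SE 0.24). It overlaps Bcl2l12, a gene of the BCL2 family, which fell by 4.86, from 10413 to 11151 in spermatocytes to 311 to 478 in spermatids. Reads of one may be counted for the other.

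Gm6639, a non-coding RNA at chr3:35597152-35666163 on the minus strand, was read at 5359, 6840, 7864 and 2556 in spermatocytes and at 155, 366, 156 and 201 in spermatids, a log2 fold change of -4.66 (SE 0.37), and of -5.81 after the GC correction. Gm20324, at chr15:82899078-82905816 on the plus strand, was read at 909, 790, 948 and 1597 and at 95.8, 47.7, 48.0 and 54.4, a fall of 4.09 (SE 0.31). It lies within the span of Tcf20, which was not called (0.57). The remaining one of the 8, Gm4763, is coding and is given with the renamed members.

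**Figure D2:**
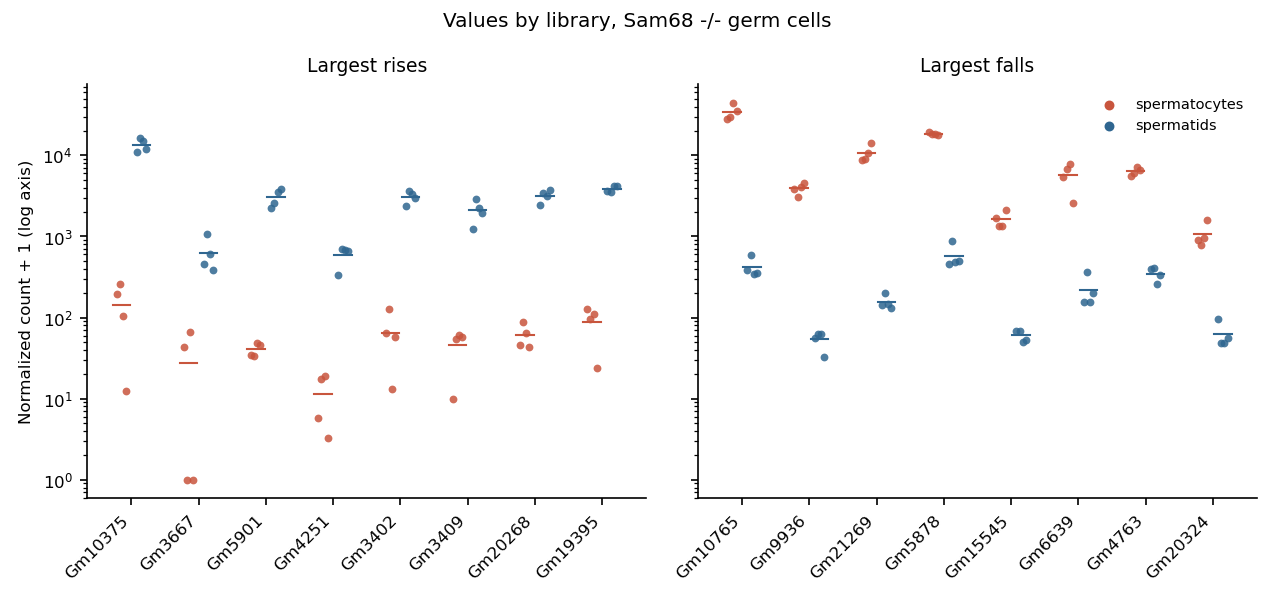
Each point is the normalized count + 1 of 1 library on a log axis for the 8 largest rises and the 8 largest falls, with a bar at the mean of the 4 libraries of a group. The groups do not overlap for any of the 16 models, and 2 spermatocyte libraries were at 0 for Gm3667.

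The members read most changed little by comparison. Gm3417 (chr17:14964189-14978812, minus strand), for which RefSeq lists Tcte3 and Tctex2 among the synonyms, names of a dynein light chain abundant in testis, had 75391, 88793, 60480 and 18462 in spermatocytes and 77505, 107730, 96279 and 99466 in spermatids. It was not called (log2 fold change 0.85, SE 0.40, adjusted p = 0.071), and without spermatocyte library 1 or 2 it was called at 1.03 or 1.11. Spermatocyte library 4 stood lowest, and without it the log2 fold change was 0.35. Shared windows made up 92.5% of its transcript. Gm7444, a pseudogene at chr9:56027636-56031573, ranged from 26525 to 75056 in spermatocytes and from 54594 to 85751 in spermatids and was not called (0.34).

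Gm128, a coding gene at chr3:95236920-95241206, rose by 1.30 (SE 0.22, adjusted p = 2.0e-04), from 38728, 34202, 19934 and 32436 to 59452, 80627, 88143 and 74108. With equal total reads or quantile normalization it was not called (0.86 and 0.83). Gm5142, a coding gene at chr14:59158503-59178750, rose by 1.73 (SE 0.26), from 7190 to 14400 in spermatocytes to 24390 to 47020 in spermatids. Gm5617, a coding gene at chr9:48495343-48495975, fell just short of the fold required (0.98, adjusted p = 0.0029) although its groups did not overlap. It was called, at 1.00 to 1.14, with TMM scaling and without spermatocyte library 1, 2 or 4 or spermatid library 1 or 4. Its start lies 13 bases from that of Rbm7 on the other strand, and Rbm7 rose by 3.50.

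Gm2762 and Gm3925, both non-coding, were not called, with log2 fold changes of -0.65 and -0.47, and with quantile normalization both were called lower, at -1.16 and -1.03. Gm1564, which RefSeq lists as Meioc, a coiled-coil protein that keeps germ cells in meiotic prophase, fell by 1.29 (SE 0.30, adjusted p = 0.0020), and by 2.16 after the GC correction. It was read at 38775, 47989, 41234 and 15426 in spermatocytes and at 14180, 14510, 12178 and 13226 in spermatids, so spermatocyte library 4 lay close to the spermatids. Per kilobase of exon, mean normalized counts over the 8 libraries were 109570 for Gm3417, 58604 for Gm3925, 53329 for Gm5617, 39246 for Gm5142, 27286 for Gm128, 25312 for Gm7444, 15372 for Gm2762 and 5399 for Gm1564. In this order of levels Gm3417 stood first and Gm1564 last.

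RefSeq lists 99 members under a symbol that is no longer a Gm name, and of these 38 were called higher (38.4%) and 24 lower (24.2%). Over all models 32.5% were called higher and 29.8% lower, and over autosomal models with another symbol 33.7% and 21.5%. Gm9992, listed as Unc93a2, a relative of the membrane protein Unc93a, was read at 12.1, 0, 1.12 and 0 in spermatocytes and at 380, 156, 230 and 206 in spermatids. Its log2 fold change was 6.65 (SE 0.72, adjusted p = 4.3e-06), and 7.49 without spermatocyte library 1. Spermatocyte libraries 2 to 4 were below the floor of 3 reads, so its size depends on the pseudocount.

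Gm355, listed as Spdye4c, belongs to the Speedy family, whose members bind and activate cyclin-dependent kinases. It was read at 83.8, 103, 59.3 and 69.6 in spermatocytes and at 3025, 3946, 3884 and 3448 in spermatids, a rise of 5.51 (SE 0.22, adjusted p = 1.5e-09). Gm4776, listed as the kinase pseudogene Stk-ps2, rose by 5.32 (SE 0.22), from 310, 293, 216 and 176 to 7664, 10680, 11073 and 9981. Gm5346, listed as Adam34l of the ADAM metalloprotease family, rose by 5.30 (SE 0.43), from 6.85 to 38.3 in spermatocytes to 675 to 938 in spermatids.

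Gm10872, listed as the non-coding RNA Mirt2, rose by 5.40 (SE 0.37). It overlaps Spatc1, a gene of spermatogenesis and the centriole, which rose by 4.43. Gm9705, listed as the cytochrome P450 Cyp4f37, rose by 4.90 (SE 0.43), from between 5.71 and 27.4 to 348, 374, 578 and 636. None of these 6 renamed rises had overlapping groups.

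Among renamed falls, Gm4763, listed as Lypd11 of the Ly6/PLAUR domain family, was read at 5500, 6020, 7287 and 6558 in spermatocytes and at 394, 406, 257 and 334 in spermatids, a fall of 4.20 (SE 0.20, adjusted p = 3.4e-09). Gm1082, listed as Arhgap33os, a transcript opposite Arhgap33, went from 7946, 7154, 8265 and 10373 to 447, 710, 506 and 490, a fall of 3.98. Gm16432, listed as Catspere2 after an auxiliary subunit of the sperm calcium channel CatSper, went from 4918, 4971, 3204 and 1539 to 347, 630, 438 and 460, a fall of 2.85. Both groups of each stood apart.

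Gm4980, listed as Tpbgl, was read at 360, 431, 1933 and 796 in spermatocytes and at 85.1, 15.9, 57.0 and 57.7 in spermatids, a fall of 3.89 (SE 0.57, adjusted p = 5.7e-05). Its highest value was in spermatocyte library 3 and its lowest in spermatid library 2, as was the case for the mean of the Sertoli cell markers (11.10 and 5.67). The part of Sertoli cells in this fall was not tested. Gm5538, listed as Aadacl2fm2 of the arylacetamide deacetylase family, had -3.22 (-4.20 after the GC correction), and the zinc finger gene Gm14420, listed as Zfp970, -1.90 (-2.62), both called lower. Of 12 renamed members that are Zfp genes, 3 were called higher and 2 lower, and of 18 named as opposite-strand transcripts 8 and 6. The shares over all models were 32.5% and 29.8%. Gm15623, listed as Rsf1os2, is among the 18 with 2 models, both called higher.

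Of the renamed members, a pair was singled out after the values were seen because both are known for roles in meiotic cells, as is Gm1564 (Meioc) above, which fell. Gm4969, listed as Bhmg1 and also known as Meiosin, the partner of Stra8 at meiotic entry, was read at 160, 130, 201 and 248 in spermatocytes and at 3486, 1137, 2087 and 1618 in spermatids, a rise of 3.41 (SE 0.33, adjusted p = 1.6e-06). Gm13718, listed as Btbd18, a nuclear factor for pachytene piRNA transcription, rose by 2.03 (SE 0.40), from 134, 101, 228 and 233 to 1368, 376, 683 and 586. Both were highest in spermatid library 1 and lowest, among spermatids, in library 2. The mean log2 levels of spermatogonia (8.56 and 7.25), Sertoli cell (6.91 and 5.67), Leydig cell (7.49 and 4.53) and peritubular myoid cell markers (8.40 and 7.50) were also highest in library 1 and lowest in library 2 of the spermatids. Of these, the Sertoli and Leydig cell markers tested were all called lower in spermatids. Endothelial markers were instead lowest in library 1 (7.82), and macrophage and blood cell markers were lowest in library 3 (6.14). The part of these cells was not tested. Over all members, spermatid library 1 was the lowest of its group for 380 of 768, and among members called higher for 213 of 347. That library also had the smallest total of normalized counts in its group, 6.84e+07 against 8.51e+07 to 9.11e+07. How often it was the lowest over all models was not counted, so this is not shown to be particular to the members.

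Some members form runs along a chromosome in which each lies within 100 kb of the next, and the 3 longest held 18 members. A run on chromosome 14 from 5942989 to 7791591 held 8 coding members, of which 7 were called higher and 1, Gm10044, lower. Its models Gm3411, Gm3636 and Gm3696 span 1228828, 798442 and 570723 bases and overlap or enclose other members. The run is thus held together by long overlapping models and is not a row of separate neighbours. The members' transcripts shared a median of 87.3% of their 50-base windows with other genes. Their reads therefore cannot be assigned to single copies with certainty, and the members are not independent measurements.

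Within that run Gm5797, at chr14:7323993-7332395 on the minus strand, was read most, at 4293, 4459, 3144 and 1604 in spermatocytes and at 31109, 39550, 37244 and 26284 in spermatids, a rise of 3.40 (SE 0.30, adjusted p = 6.2e-07). Gm3558 rose by 5.10, from 180, 165, 52.6 and 69.6 to 3698, 4427, 3878 and 2471. Gm3696 rose by 4.84, Gm3636 by 3.85 and Gm3411 by 3.45. Gm3636 was 3.25 without spermatocyte library 4.

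Gm3667 was read at 41.9, 0, 64.9 and 0 in spermatocytes and at 453, 1083, 608 and 386 in spermatids. Its log2 fold change of 6.32 (SE 1.31, adjusted p = 0.0012) ranged from 5.37 to 7.38 when single spermatocyte libraries were left out. Gm3739, at 10.5, 0, 4.47 and 0 against 155, 344, 120 and 256, had 6.17. Its value was 6.84 without spermatocyte library 1 and 4.25 with a pseudocount of 8. Gm10044, which shares no windows with other genes, was read at 2021, 2147, 1865 and 2886 in spermatocytes and at 498, 818, 653 and 658 in spermatids, a fall of 1.76 (SE 0.21).

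A second run on chromosome 14, from 3049285 to 4122786, held Gm2897, Gm5796, Gm5795, Gm3002 and Gm8108. Here Gm5796 spans 986225 bases, overlaps Gm2897 and encloses Gm5795 and Gm3002. Gm5795 was read most, at 332, 374, 333 and 74.2 in spermatocytes and at 6232, 11515, 9779 and 6612 in spermatids, a rise of 5.12 (SE 0.45, adjusted p = 6.6e-07). Gm5796 rose by 4.32 and the pseudogene Gm3002 by 2.50. Gm2897 rose by 5.41 (SE 1.03), with 0 reads in spermatocyte library 4, and its log2 fold change was 4.09 without that library and 6.07 without library 2. Gm8108 was not called, at 16.1, 14.7, 15.7 and 0 against 12.0 to 19.6, with a log2 fold change of 1.04 that went to 0.033 without spermatocyte library 4.

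All 5 members of the chromosome 5 run, from 146481943 to 146540427 on the plus strand, were coding and called higher, by 4.87 to 5.93. Gm6408 was read at 119, 70.7, 83.9 and 87.9 in spermatocytes and at 2048, 3497, 2803 and 2334 in spermatids. Gm6370 was read at 111, 145, 82.8 and 119 and at 3249, 5289, 4750 and 4118. Both had even spermatocyte values, with rises of 4.87 (SE 0.24) and 5.24 (SE 0.23).

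Gm3402 was read at 62.9, 125, 12.3 and 55.9 in spermatocytes and at 2362, 3678, 3295 and 2953 in spermatids, a rise of 5.93 (SE 0.53), and of 5.30 without spermatocyte library 3. Gm3404 went from 129, 180, 131 and 34.3 to 3784, 5219, 4619 and 3860, a rise of 5.41 (SE 0.42). Gm3409 went from 8.87, 53.0, 60.4 and 55.9 to 1235, 2934, 2256 and 1969, a rise of 5.76 (SE 0.53), and of 5.13 without spermatocyte library 1. Among these 3 copies the lowest spermatocyte library differed (library 3, 4 and 1), while spermatid library 1 was the lowest of its group for all 5.

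The copies are close in sequence. The promoter windows of Gm6370 and Gm3402 were identical, those of Gm3404 and Gm3409 matched at 99.0% of positions, and Gm6408 stood apart at 79.0% to 80.2% from the other 4. Transcripts were 90.6% to 98.5% identical, so a read within a shared stretch could come from any of the 5. Over all members, 91 had at least 50% of windows shared with another gene, of which 48 were called higher and 8 lower. Of the 374 members with no shared window, 182 were called higher and 88 lower.

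**Figure D3:**
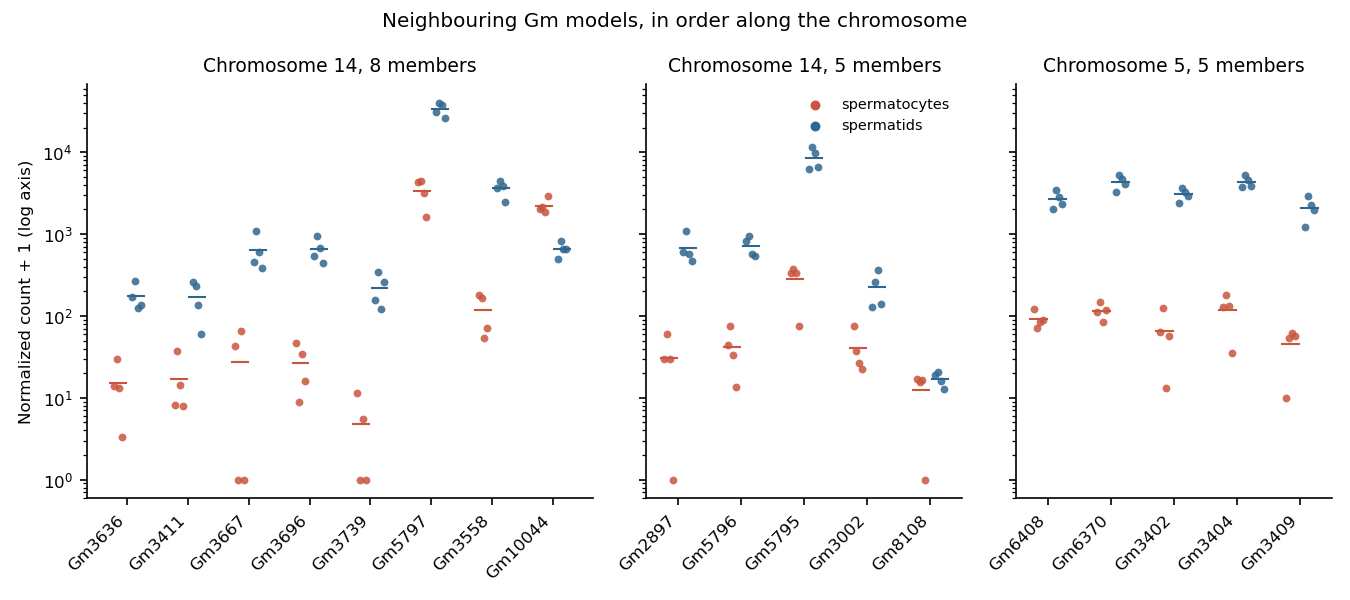
Each point is the normalized count + 1 of 1 library on a log axis for the members of the 3 longest runs, in order of their start on the chromosome, with a bar at each group's mean. Gm10044 is the only one of the 18 with spermatocytes above spermatids, and the groups overlap only for Gm8108.

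Many members lie on or beside a named gene. Of 764 symbols, 292 overlap the span of a named gene, and for 285 of these that gene was tested as well. Both were called for 114 pairs, in the same direction for 92 and in opposite directions for 22. In 16 of the 22 the member was higher and the named gene lower in spermatids. Of the pairs on opposite strands with known strand, 88 of 215 were both called, 72 of them in the same direction. Of 21 pairs on the same strand, 9 were both called, 6 of them in the same direction. Over all single models, 62.3% were called. No count over other pairs of models was made, so whether these pairs are called or alike more often was not tested. The library kit keeps strand, but whether the counting used it is not given in the sources used here, so reads of a member and of the gene on the other strand may be mixed.

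Gm14092, a coding model at chr2:145549455-145554983 on the minus strand, lies in the span of Slc24a3, a sodium, potassium and calcium exchanger on the plus strand. Gm14092 was read at 3.22, 5.89, 11.2 and 0 in spermatocytes and at 106, 129, 120 and 140 in spermatids, while Slc24a3 went from 423, 744, 2376 and 830 to 76.1, 27.1, 70.6 and 78.4. The log2 fold changes were 4.84 (SE 0.64, adjusted p = 2.2e-05) and -3.91 (SE 0.49, adjusted p = 1.5e-05), the widest gap among the 22 pairs. Without spermatocyte library 4, Gm14092 had 4.13.

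Gm19335, at chr1:68591618-68593687, lies on the same strand as Erbb4, a receptor tyrosine kinase of the EGF receptor family. It was read at 0, 5.89, 2.24 and 0 in spermatocytes and at 61.8, 204, 116 and 91.4 in spermatids, while Erbb4 went from 25.8, 34.3, 105 and 13.7 to 8.96, 2.80, 6.00 and 5.44. The log2 fold changes were 5.64 (SE 0.64) and -2.44 (SE 0.58), and that of Gm19335 was 3.29 after the GC correction. Gm19335 is 1 of the 89 members that entered through spermatids alone, all called higher. Gm10309, at chr17:86497732-86505233 on the minus strand, opposite the protein kinase C gene Prkce, rose by 5.39 (SE 0.29), from 57.2, 89.3, 38.0 and 41.1 to 1728, 2613, 2675 and 2196. Prkce fell by 2.15, from 219, 382, 919 and 301 to 68.2 to 117.

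Slc24a3, Erbb4 and Prkce were each highest in spermatocyte library 3, where the mean of the Sertoli cell markers was highest too. The part of Sertoli cells in the falls of these 3 genes was not tested. In the other direction, Gm11744, listed as Prcd, fell by 2.54, from 136, 140, 173 and 190 to 22.4, 19.6, 28.5 and 38.1, while St6galnac2, a sialyltransferase on the opposite strand, rose by 4.78, from 628 to 1057 in spermatocytes to 14183 to 29572 in spermatids.

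**Figure D4:**
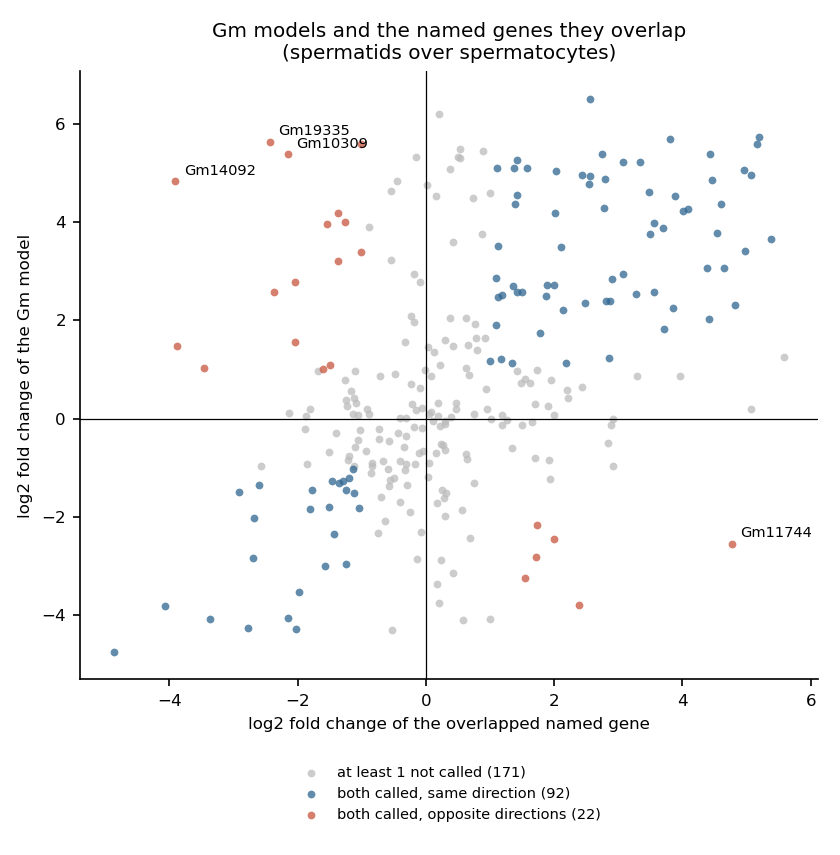
Each of the 285 points is a member, with the log2 fold change of the named gene it overlaps on the x axis and its own on the y axis, both spermatids over spermatocytes. Of the 114 pairs with both called, 92 lie in the lower left or upper right and 22 in the other corners.

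Members that start head to head with a named gene, on opposite strands with starts within 1000 bases, numbered 121. Both were called for 39 of these pairs, in the same direction for 32, beside 62.3% of all single models called. Other pairs of models were not counted here either. Of the 7 opposite pairs, the 3 with the closest model starts were picked after their values were seen. Gm9776 starts 34 bases from Ap3b1, a subunit of the AP-3 adaptor complex, and fell by 1.55, while Ap3b1 rose by 1.01. The model of Gm10570 starts 63 bases from Fabp3, a fatty acid binding protein, but its RefSeq start lies 972 bases from that model start. Gm10570 rose by 3.74 from at most 4.84 normalized counts in spermatocytes to 27.8, 43.9, 24.0 and 21.8, while Fabp3 fell by 2.45. Gm10570 too entered through spermatids alone. Gm13718 (Btbd18) starts 100 bases from Ctnnd1, which encodes p120 catenin and fell by 1.23, from 5884 to 7256 in spermatocytes to 2587 to 3290 in spermatids.

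Promoter windows could be read for 380 members with a RefSeq start within 1000 bases of the start of the model. The median number of CG pairs per window was 3 for the 182 members called higher, 7 for the 76 called lower and 9 for the 122 not called, beside 7 over 27025 RefSeq promoters. The order was the same within protein-coding members (2, 5 and 6) and within non-coding RNAs (4, 8 and 14). Other autosomal genes with a symbol had more CG pairs but the same order, at 11, 19 and 21, and other non-coding RNAs had 4, 11 and 16. The same order was thus seen outside the Gm models, and no test of these differences was made.

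**Figure D5:**
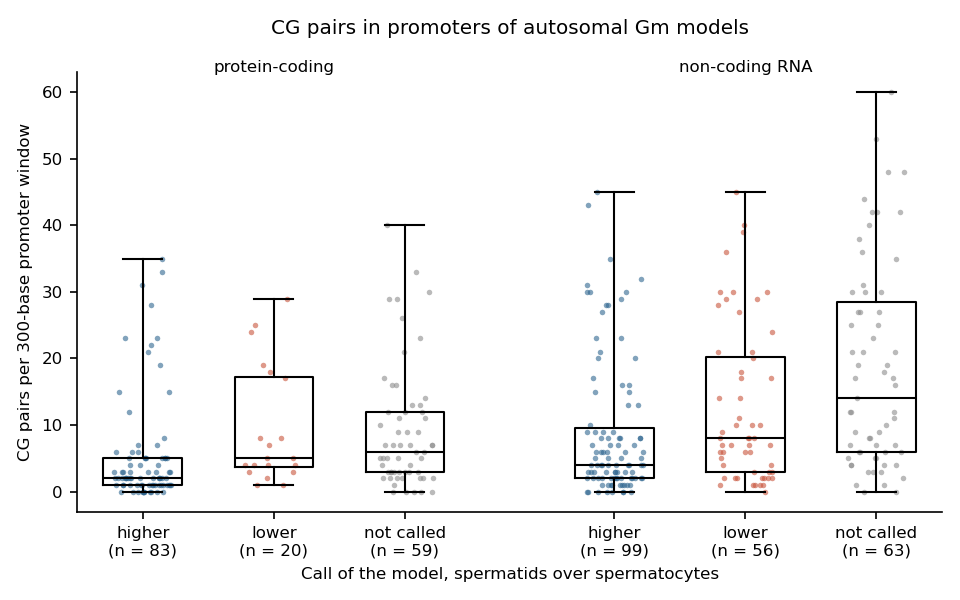
Each point is the number of CG pairs in the 300-base promoter window of 1 member, by RefSeq type and call, with a box from the first to the third quartile, the median as a line and whiskers to the lowest and highest values. Medians are 2, 5 and 6 for coding members called higher, lower and not called, and 4, 8 and 14 for non-coding RNAs.

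Short motifs were searched on both strands of the same windows. The GC box GGGCGG, which itself holds a CG pair, was found in 19.2% of members called higher, 35.5% of those called lower and 44.3% of those not called, beside 35.6% of all RefSeq promoters. The X-box core GTTGCC, bound by RFX factors, was found in 15.4%, 7.89% and 9.84%, beside 12.6%. The CRE core TGACG, part of the site of CREM and CREB, was found in 17.0%, 21.1% and 17.2%, beside 20.6%, and the MYB core AACNG in 79.7%, 80.3% and 78.7%, beside 80.3%. Of the printed windows, Gm9936 and Gm15545 hold the CRE core and Gm20268 the X-box core. A match is a description of the letters and no evidence of binding.

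Interferon-inducible GTPases and non-classical MHC class I genes carry Gm symbols too. Of a list of 10 such symbols, 8 were in the table and 2 passed the rule. Gm4841 rose by 2.53 (SE 0.41, adjusted p = 1.3e-04), from 2.42, 3.93, 3.35 and 1.14 to 12.5, 19.6, 19.5 and 29.4, its spermatocyte values being close to the floor of 3 reads. It is 1 of the 89 members that entered through spermatids alone, all called higher, so its call gives no separate support. Gm12250, also called Irgb10, was not called, at 4.84, 13.7, 11.2 and 11.4 against 18.8, 12.1, 12.0 and 10.9 (0.41). The macrophage and blood cell markers were higher in the spermatid libraries as well, and their part in the rise of Gm4841 was not tested.

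Spermatocyte library 4 stood apart in a set of members. Of 428 members averaging at least 50 normalized counts in spermatocytes, 22 were at least 4-fold below the median of the other libraries of the group there, against at most 3 in any other spermatocyte library. Of the 22, 16 are protein-coding, and 8 had at least 50% of windows shared with another gene, beside 91 of the 681 members matched in GENCODE. Gm13139, Gm13247, Gm13157 and Gm4944 were among them, with 2255, 281, 182 and 235 in library 4 against medians of 16480, 2300, 1645 and 1333 in the other 3. RefSeq lists these 4 as the zinc finger genes Zfp991, Zfp981, Zfp984 and Zfp994. Of the 22, 6 were called higher in spermatids, 4 lower and 12 not called, and leaving the library out gave 352 members called higher and 172 lower. Library 4 also had the lowest mean log2 level of the spermatocyte markers among spermatocyte libraries, 12.91 against 13.5 to 13.73. Any link of this to the low values was not tested. How many of all models stood as low in library 4 was not counted.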

How the data were processed

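The members, gene lists and alternatives were chosen with earlier results of these data known. Sta-put fractions of Sam68 -/- testes gave DNase-treated RNA for TruSeq Stranded mRNA libraries, per the labels' protocols. The deposited signal values are reads counted on each gene model after scaling by the size factor of its library, with DESeq, STAR 2.4.0, Picard, SAMtools, FastQC and build mm10 named in the submitters' processing notes. The counting tool is not given in the sources used here, nor is its strand setting. Every value above 0 lay within 10% of a step from a whole number of reads, so whole reads were recovered. Another 8 columns of sample values in the table match no label and were left aside.

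The 28735 models that reached 10 normalized counts in 4 or more libraries were fitted with limma 3.58.1 (R 4.3.3, trend and robust moderation) on log2(normalized count + 1). The p-values were Benjamini-Hochberg adjusted over all of them, and the members were read off. The 32111 models without symbol took part in the filter, and only those that passed it took part in the fit. The fit was tested on simulated data. edgeR 4.0.16 and DESeq2 1.42.0 on the recovered reads were alternatives. Named were the 8 largest rises and falls averaging 500 or more on their higher side, groups apart, the 8 members with the highest mean, the 6 largest renamed rises and falls averaging 200 or more, the interferon and MHC list, the 3 longest runs, the 3 widest opposite overlaps and Khdrbs1; others are named as picked afterwards. For a symbol with several models, the most-read model was taken. RefSeq (GRCm38.p6) matched 501 members by symbol and 101 by synonym, and GENCODE M21 matched 681. The closest replicate pair of libraries differed by a chi-square of 12.2 per degree of freedom, so none was counted as 1 sample.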

Additional observations from a re-analysis of the deposited data

Results flagged for a closer look

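In 9 of 110 groups of 4 libraries checked among the named models, 1 library stood far from the other 3 relative to the range of the group. About 1 in 20 groups of independent, normally distributed values would pass the same cut-off. The named models were chosen by their values in these libraries, and some are near copies of each other. The 9 of 110 is therefore a description and tests nothing. Among spermatocytes, Gm3409 was lowest in library 1 at 8.87 normalized counts, Gm9992 was highest in library 1 at 12.1, Gm5795 was lowest in library 4 at 74.2, and Gm8108 was lowest in library 4 at 0. Among spermatids, Gm4251 was lowest in library 1 at 332, Gm20324 was highest in library 1 at 95.8, and Gm12250 was highest in library 1 at 18.8. Gm10765 and Gm5878, both among the largest falls, were highest in spermatid library 2, at 584 and 871.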

How the results depend on the processing

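Over the 21 alternatives, members called higher numbered 247 (a minimum of 50 normalized counts, which leaves 533 members) to 352, and members called lower 118 to 209, beside 347 and 163. Leaving out single libraries gave 336 to 352 higher and 156 to 172 lower. No alternative called a member in the opposite direction. Equal total reads moved the median of all models to -0.44 and the share higher among called members from 68.0% to 60.2% (316 higher, 209 lower), and quantile normalization moved the median to -0.36 (328 and 196). A correction for GC content, chosen after seeing the data, gave 301 and 176 instead of 317 and 140 over 681 members. Of 55 named members, 50 kept call and direction in every alternative that tested them; the minimum of 50 tested 52 of them and the GC settings 54. With equal total reads and quantile normalization Gm128 lost its call (0.86 and 0.83) and Gm2762 gained one (-1.08 and -1.16). Gm3925 gained one with quantile normalization (-1.03), Gm3417 (1.03 and 1.11) without spermatocyte library 1 or 2, and Gm5617 (1.00 to 1.14) under TMM scaling and several leave-outs; the cause was not tested. The GC correction moved the fold of called named members by over 1.5 times for 15 rises, all lowered (Gm19335 most, from 5.64 to 3.29), and 5 falls, all deepened (Gm6639 most, from -4.66 to -5.81); no call was lost. No paired analysis was possible because the labels give the libraries no shared replicate numbers. Depth limits values under 3 reads, so folds of models near 0 in spermatocytes depend on the pseudocount, as for Gm9992 (4.52 with a pseudocount of 8).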
